A study of Rattus norvegicus with 13 samples.

Results

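The genes described here encode the proteins of the cytosolic ribosome, measured in the fat of daughters of rats that ate either a control or a high-fat diet. They were chosen by symbol, taking Rpl or Rps followed by a digit together with Rplp0, Rplp1, Rplp2 and Rpsa. This gave 73 of the 14506 genes named on the array, after 6 S6 kinases (Rps6k symbols) and 1 pseudogene were left out. Of the 73, 26 were proteins of the small subunit and 42 of the large subunit. The other 5 were 4 genes with paralog-type symbols (Rpl22l1, Rpl36al1, Rpl37l1 and Rps4y2) and Rps19bp1, which encodes a protein that binds Rps19 and is not itself part of the ribosome.

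All animals were Sprague Dawley rats, an outbred strain, and all daughters were female. Fathers in the high-fat group ate pellets with 43% fat, and fathers in the control group ate chow with 9% fat. Mothers ate chow, fathers were 15 weeks old at mating, and both groups of daughters received chow from weaning at 3 weeks until fat was collected at 14 weeks. There were 7 control daughters (622, 627, 631, 656, 658, 662 and 664) and 6 high-fat daughters (619, 620, 624, 629, 660 and 663), with 1 Affymetrix array each. The comparison asks how the diet of a father bears on gene expression in a daughter that never ate it. The labels do not give the fat depot, the father or the litter of a daughter, so p-values measure only the spread between these samples.

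A ribosome joins a small subunit, which reads the mRNA, to a large subunit, which forms the peptide bond. Each subunit is a core of ribosomal RNA clothed in proteins that are mostly needed in equal numbers, and their mRNAs are among the most abundant in a cell. Their transcripts typically begin with a cytosine followed by an unbroken stretch of C and T, the 5′ terminal oligopyrimidine (TOP) tract, through which the kinase complex mTORC1 controls their translation. In fat, mTORC1 is activated by insulin and amino acids. An array reads mRNA levels and not translation, so control of translation through the TOP tract would not be seen here. Several of these genes, such as Rplp0, Rpl13a, Rps18, Rpl32 and Rpl19, also serve as reference genes in quantitative PCR.

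Most of the genes searched, but not all, had a long run of C and T near the annotated start. RefSeq's annotation of the rat build GRCr8 gave a start for 62 of the 73 genes, and the window from 20 bases before to 20 bases after each start was searched. The 11 without an entry were Rpl7, Rpl8, Rpl15, Rpl23a, Rpl27, Rpl30, Rpl32, Rpl37l1, Rps20, Rps25 and Rps29. The windows below are those of genes with the smallest p-values (Rps23, Rplp2, Rpl27a, Rpl3), the widest spread (Rpl7a, Rps15a, Rps12) or the narrowest spread (Rpl13a, Rpl18, Rpl10), with Rpl19 as a further PCR reference. Each is written 5′ to 3′ on the strand of the gene, and capitals mark its longest run of C and T.
Rps23 (chr2:23814497-23814536, plus strand): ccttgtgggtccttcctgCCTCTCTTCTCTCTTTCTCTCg
Rplp2 (chr1:205975901-205975940, plus strand): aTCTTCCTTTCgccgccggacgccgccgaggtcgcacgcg
Rpl27a (chr1:172974553-172974592, plus strand): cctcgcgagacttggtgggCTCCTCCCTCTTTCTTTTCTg
Rpl3 (chr7:113507971-113508010, minus strand): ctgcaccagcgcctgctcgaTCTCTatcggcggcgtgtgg
Rpl7a (chr3:30637116-30637155, plus strand): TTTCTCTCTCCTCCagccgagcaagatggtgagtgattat
Rps15a (chr1:181860265-181860304, minus strand): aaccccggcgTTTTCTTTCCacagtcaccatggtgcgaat
Rps12 (chr1:23500055-23500094, plus strand): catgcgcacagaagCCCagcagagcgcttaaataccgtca
Rpl13a (chr1:104748894-104748933, minus strand): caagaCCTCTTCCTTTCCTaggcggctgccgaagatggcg
Rpl18 (chr1:105325250-105325289, plus strand): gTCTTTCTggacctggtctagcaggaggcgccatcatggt
Rpl10 (chrX:157205830-157205869, plus strand): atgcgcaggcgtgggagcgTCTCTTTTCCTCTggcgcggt
Rpl19 (chr10:83519044-83519083, plus strand): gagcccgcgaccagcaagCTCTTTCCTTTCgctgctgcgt

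A run of at least 8 C or T letters lay in 46 of the 62 windows (74.2%), against 15.5% of the 33469 start windows in the table and 19.6% of the 56 windows of mitochondrial ribosomal protein genes. On the other strand such a run lay in 1 window of the ribosomal proteins (1.61%), against 17.2% of all windows. The median longest run was 10 bases in the ribosomal protein windows and 5 over all windows. A first base C followed by at least 4 letters C or T, the form of a TOP start at the annotated base itself, was found in 23 windows (37.1%), against 2.63% of all windows and 3.57% of the mitochondrial set. The letters CTTTCC, which can lie inside such a run, were in 18 windows (29%) against 1.73% of all windows, and on the other strand in 1 window (1.61%) against 1.77%. In the windows of Rplp2, Rpl7a, Rps15a, Rpl13a and Rpl18 the run ends before the annotated start, and in Rps12 the longest run is 3 bases. A match describes the letters of a window and is not a measured start site. Long runs occur both among genes that were steady across the arrays, such as Rpl13a with 14 bases, and among those that varied, such as Rpl7a with 14.

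The arrays were alike in overall scale. Each held log2 values of 29214 probes, which ran from 3.24 to 14.54 over the series. Array medians lay at 7.66 to 7.72, and pairs of arrays correlated at 0.946 to 0.995. The mean of 10 adipocyte markers was 12.34 to 12.49 in controls and 12.32 to 12.69 in the high-fat group, near the top of the scale on every array. The mean of 15 skeletal muscle markers was 7.26 to 11.99 in controls and 7.28 to 11.79 in the high-fat group. It was highest on 4 arrays, controls 662 and 664 and high-fat 629 and 619, at 9.17 or more, and at most 7.39 on the others. The standard deviation of all genes on an array ran from 1.59 to 1.85 and was smallest on controls 658 and 631 and high-fat 660. Its median was 1.77 in controls and 1.83 in the high-fat group, so as a covariate it can take up part of a group difference. In a piece of tissue, fewer cells of a type and less RNA per cell cannot be told apart. Levels of different probes are not compared as abundances, since each probe has its own affinity.

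The mRNAs of the cytosolic ribosome lay at nearly the same level in both groups of daughters. In the high-fat daughters 37 of the 73 genes had a higher mean and 36 a lower one, with a median log2 difference (high-fat minus control) of 0.0028. Over all 14506 genes the median was 0.03, with 8419 higher and 6087 lower. Most of the ribosomal proteins (68) lay above the middle level of the array, and of these 34 were higher and 34 lower. Among all 7253 genes above that level 6123 were higher, with a median of 0.09. The mean over the 73 genes on one array ran from 10.94 to 11.05. Control daughters averaged 10.99 ± 0.04 (SD, n = 7) and high-fat daughters 10.99 ± 0.03 (SD, n = 6). The small subunit had a median difference of -0.01, with 12 genes higher and 14 lower. The large subunit had a median of 0.0063, with 23 higher and 19 lower. Normalizing the arrays by quantiles once more made the split 20 higher and 53 lower, and centring each array on its median made it 54 higher and 19 lower, so the sign of differences this small rests on the scaling.

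No gene passed limma's moderated test after Benjamini-Hochberg adjustment over all 14506 genes, neither among the ribosomal proteins nor elsewhere, and the smallest adjusted p was 0.53. At an unadjusted p under 0.05 limma named 4 of the 73 (5.48%), 3 higher and 1 lower, against 7.96% of all genes (5.42% higher and 2.54% lower). The share among ribosomal proteins was thus not above that of the array as a whole, nor above the 9.11% of genes above the middle level. Groups that did not overlap occurred in 0 of the 73 genes, against 0.0827% of all genes. Without the 4 arrays with the most muscle signal, 0 of the 73 had an unadjusted p under 0.05, against 3.79% of all genes. With the muscle mean as a covariate it was 3 of the 73, against 8.67%.

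**Figure D1:**
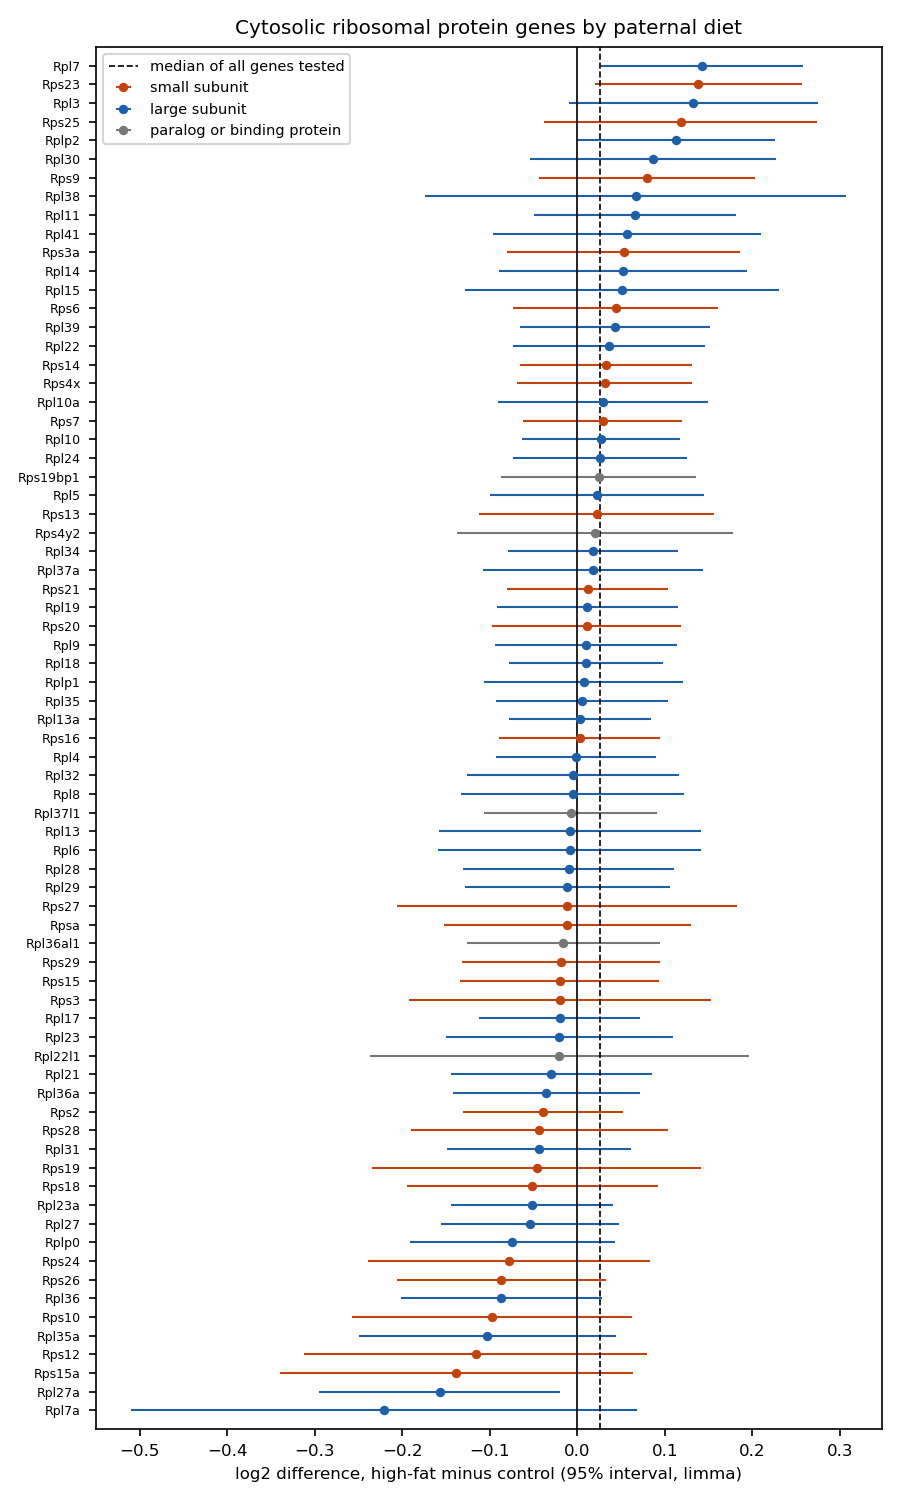
Log2 difference between daughters of high-fat and control fathers for each of the 73 genes (points, coloured by subunit) with limma's 95% interval (bars), ordered by size; the dashed line is the median of all genes tested (0.03). Most points lie within 0.1 of 0, and the widest interval is that of Rpl7a.

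The intervals were narrow. For 63 of the 73 genes (86.3%) limma's 95% interval lay within 0.25 log2 units on either side of 0, against 44.4% of all genes. The 10 genes whose intervals reached further were Rpl7a, Rpl27a, Rps15a, Rps12, Rps10, Rpl38, Rps25, Rpl3, Rps23 and Rpl7, and over all 73 the bounds ran from -0.51 to 0.31. The measured difference was under 0.1 in size for 63 genes (86.3%), against 56.7% of all genes.

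Among small-subunit proteins, Rps23 had the smallest p. Rps23 sits in the decoding centre, where codon and anticodon meet. Its level was 10.57 to 10.79 in controls, with a median of 10.66, and 10.74 to 10.93 in the high-fat group, with a median of 10.79. Of the 6 high-fat daughters 3 lay above every control, and 5 controls lay below every high-fat daughter. The difference was 0.14 ± 0.06 (SE), with an unadjusted p of 0.025 and an adjusted p of 0.53 by limma. Its 3 probes differed by 0.12 to 0.16, all in the same direction, but probes of one gene may share sequence and are not independent readings. Leaving out control 656 or 662, or high-fat 619 or 624, brought the unadjusted p above 0.05, with differences of 0.12 in each case. Limma's unadjusted p was under 0.05 in 19 of 27 alternative settings. It was also above 0.05 after repeated quantile normalization and without the 4 arrays with the most muscle signal. The same held within daughters 619 to 631 and within 656 to 664, where the difference was smallest at 0.08.

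Rps25 and Rps9 were the next in the same direction, with larger overlaps. Rps25, a protein of the small-subunit head that some viral mRNAs need for initiation, ranged from 10.05 to 10.53 in controls (median 10.44) and from 10.41 to 10.60 in the high-fat group (median 10.52). Control 627 stood low at 10.05, and 3 high-fat daughters lay above all controls. Limma gave a difference of 0.12 ± 0.07 (SE) and an unadjusted p of 0.13. Rps9, which lies near the mRNA entry channel, differed by 0.08 ± 0.06 (SE). Its 3 probes gave differences from -0.02 to 0.08, and the dimmer ones correlated with the brightest at -0.09 and 0.57, so its direction depends on the probe. The mean of the probes differed by 0.02.

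Rps15a and Rps26 lay on the lower side. Rps15a is a small-subunit body protein. Controls ranged from 8.45 to 9.08 with a median of 8.66, and high-fat daughters from 8.42 to 8.69 with a median of 8.54. The groups overlapped from 8.45 to 8.69, and control 658 was the highest at 9.08. The difference was -0.14 ± 0.09 (SE), with an unadjusted p of 0.16 by limma. Rps26, which touches the mRNA near the exit channel, had levels of 11.17 to 11.43 in controls and 11.09 to 11.38 in the high-fat group, a difference of -0.09 ± 0.06 (SE). It was negative under all 27 alternative settings, from -0.13 to -0.06.

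Small-subunit proteins with known links to signalling and disease differed little. Rps6, the protein that S6 kinase phosphorylates downstream of mTORC1, was at 12.10 to 12.37 in controls and 12.20 to 12.34 in the high-fat group, a difference of 0.04 ± 0.05 (SE). Rps3, which lines the mRNA entry channel, differed by -0.02 ± 0.08 (SE). Rps19, mutated in Diamond-Blackfan anaemia, differed by -0.05 ± 0.09 (SE). Rpsa, also known as the laminin receptor precursor, differed by -0.01 ± 0.07 (SE), and Rps27, a zinc-finger protein with one of the dimmest probes of the list, by -0.01 ± 0.09 (SE). The brightest small-subunit probes were equally close, with differences of -0.02 for Rps29, 0.03 for Rps4x and -0.04 for Rps2. None of these 8 had an unadjusted p under 0.2.

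Among large-subunit proteins, Rpl7 had the smallest p of the whole list. Rpl7 is an RNA-binding protein of the large subunit. It was measured by 1 probe, at 10.40 to 10.61 in controls (median 10.43) and 10.50 to 10.70 in the high-fat group (median 10.60). Of the high-fat daughters 3 lay above every control, and 5 of the 7 controls lay below every high-fat daughter. The means were 10.46 ± 0.08 (SD, n = 7) and 10.60 ± 0.09 (SD, n = 6). Limma gave a difference of 0.14 ± 0.05 (SE), an unadjusted p of 0.019 and an adjusted p of 0.53. Its unadjusted p was under 0.05 in 22 of 27 alternative settings, among them those with any single array left out. It was 0.09 after repeated quantile normalization, with a difference of 0.10, and 0.099 without the 3 arrays of smallest standard deviation. It was 0.063 without the 4 arrays with the most muscle signal, 0.24 within daughters 619 to 631 and 0.14 within 656 to 664.

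Rpl27a was the one member lower in the high-fat group at this level. This large-subunit protein was also measured by 1 probe. Controls ranged from 10.69 to 11.12 with a median of 10.82, and high-fat daughters from 10.63 to 10.71 with a median of 10.67. All 6 high-fat values lay in a narrow band at the low end, and 5 controls lay above all of them, control 658 standing highest. The difference was -0.16 ± 0.06 (SE), with an unadjusted p of 0.028 and an adjusted p of 0.53 by limma. Limma's unadjusted p was under 0.05 in 22 of 27 alternative settings. With the standard deviation of each array as a covariate the difference was -0.07 with an unadjusted p of 0.16. Without high-fat 624 it was -0.15 with an unadjusted p of 0.054. The unadjusted p was also above 0.05 within daughters 656 to 664 and without the 4 arrays with the most muscle signal.

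Rpl3, which reaches toward the peptidyl transferase centre, was 11.11 to 11.57 in controls (median 11.27) and 11.36 to 11.50 in the high-fat group (median 11.45). Of the controls 5 lay below every high-fat daughter and 1 above them all. The difference was 0.13 ± 0.07 (SE), with an unadjusted p of 0.066 by limma. On the lower side, Rpl36 differed by -0.09 ± 0.05 (SE), with 5 controls above all high-fat daughters. That is the value of the brightest of its 10 probes, whose mean differed by -0.04 with an unadjusted p of 0.46 by limma. Rpl35a, another gene mutated in Diamond-Blackfan anaemia, differed by -0.10 ± 0.07 (SE). Both were negative under all 27 alternative settings.

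Rpl7a, an RNA-binding protein of the L7Ae family, had the largest difference and the widest spread of the list. Controls ranged from 10.44 to 11.36 with a median of 10.60, and high-fat daughters from 10.36 to 10.78 with a median of 10.47. Controls 658, at 11.36, and 631, at 11.00, were the highest arrays, and the other 5 controls lay within the high-fat range. The difference was -0.22 ± 0.13 (SE), with an unadjusted p of 0.12 by limma. All 13 Rpl7a probes gave differences of -0.25 to -0.19 and correlated with the brightest one at 0.988 to 0.999 over the arrays. Probes of one gene may share sequence, so these are not counted as independent readings. With the standard deviation of each array as a covariate the difference was 0.02.

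Other large-subunit proteins of known function lay close to 0. Rpl5 and Rpl11, which carry the 5S ribosomal RNA and can bind Mdm2 to raise p53, differed by 0.02 ± 0.06 (SE) and 0.07 ± 0.05 (SE). Rpl10, which joins the large subunit late in its assembly, differed by 0.03 ± 0.04 (SE). Rpl4 and Rpl39, which line the peptide exit tunnel, differed by -0.0016 ± 0.04 (SE) and 0.04 ± 0.05 (SE). Rpl22 differed by 0.04 ± 0.05 (SE), and its paralog Rpl22l1, measured by 1 dim probe, by -0.02 ± 0.10 (SE). Rpl36a differed by -0.04, Rpl15 by 0.05 and Rpl28 by -0.01. Rps19bp1, the binding partner of Rps19, differed by 0.02 ± 0.05 (SE). All of these had overlapping groups and an unadjusted p over 0.2 in limma.

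The stalk proteins Rplp0, Rplp1 and Rplp2 form the flexible arm that recruits the elongation factors to the large subunit. Rplp2 ranged from 12.60 to 12.85 in controls (median 12.67) and from 12.72 to 12.94 in the high-fat group (median 12.78). Apart from control 627, at 12.85, every control lay below every high-fat daughter. Its difference was 0.11 ± 0.05 (SE), with an unadjusted p of 0.049 and an adjusted p of 0.53 by limma. The 3 Rplp2 probes gave 0.10 to 0.11. Its partner Rplp1 differed by 0.0075 ± 0.05 (SE) and the base of the stalk, Rplp0, by -0.07 ± 0.06 (SE), so the measured values of the stalk genes were not all on one side of 0. Leaving out a single array brought the unadjusted p of Rplp2 above 0.05 for 11 of the 13 arrays, the exceptions being control 627 and high-fat 629. The mean of its probes gave an unadjusted p of 0.059.

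**Figure D2:**
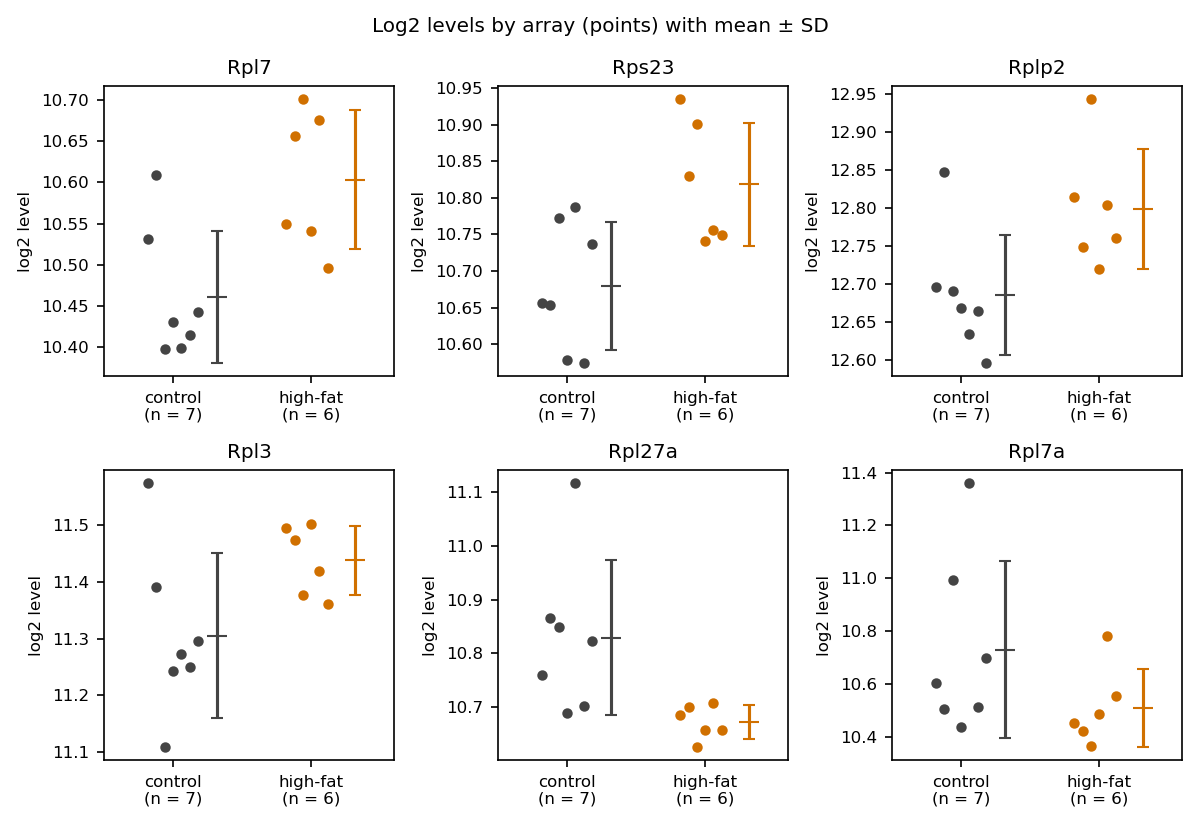
Log2 levels of Rpl7, Rps23, Rplp2, Rpl3, Rpl27a and Rpl7a on each array (points), with mean ± SD beside them, in 7 control and 6 high-fat daughters. High-fat daughters lie mostly above controls for Rpl7, Rps23, Rplp2 and Rpl3 and below for Rpl27a, with overlap in every panel, and 2 high controls set Rpl7a apart.

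Of the 5 genes used as PCR references, Rpl13a had the smallest standard deviation within groups of all 73 (0.025). Rpl19 (0.066) lay below the median of the list (0.085), Rplp0 was at it, and Rpl32 (0.089) and Rps18 (0.115) lay above it. Rpl13a was at 11.89 to 11.97 over all 13 arrays, a span of 0.08, with a difference of 0.0035 and an interval from -0.08 to 0.09. Rpl32 differed by -0.0045, Rpl19 by 0.01 and Rps18 by -0.05. Rplp0 had the largest difference of the 5, at -0.07 with an interval from -0.19 to 0.04. On the same arrays 11 other reference genes had a median difference of 0.05, 8 higher and 3 lower, and Sdha, a subunit of succinate dehydrogenase, had 0.21 ± 0.09 (SE) with an unadjusted p of 0.029 and an adjusted p of 0.53 by limma. Whether a reference gene suits a PCR also depends on the assay, which was not measured here.

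The spread between daughters was small. The standard deviation within groups had a median of 0.085 over the 73 genes and ran from 0.025 to 0.265, against a median of 0.148 over all genes and 0.147 over the 2187 other genes with a mean level of at least 10. Of the 73 genes, 65 lay below the median of all genes. The span from the lowest to the highest array had a median of 0.31, with 25 genes under 0.25 and 11 over 0.5. By the standard deviation over all 13 arrays, groups pooled, the steadiest were Rpl13a, Rpl18, Rpl4, Rpl10 and Rps16, and the most variable Rpl7a, Rpl38, Rpl22l1, Rps15a and Rps12. The mitochondrial ribosomal proteins, encoded in the nucleus for a separate ribosome, had a median of 0.142. Saturation of bright probes could not be assessed from the deposited values.

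**Figure D3:**
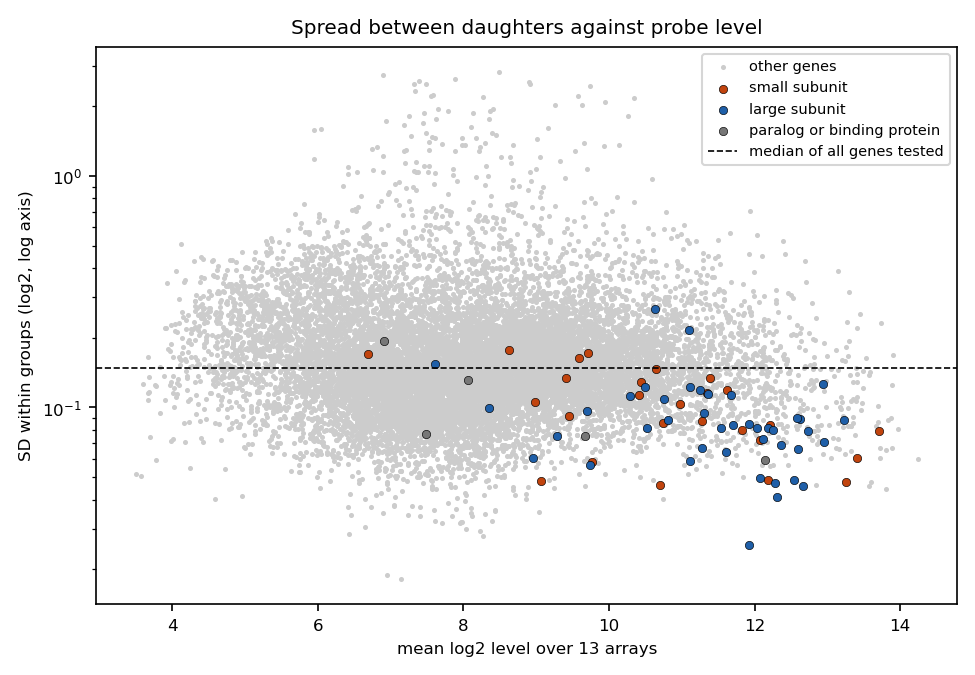
Standard deviation within groups (log axis) against mean log2 level for each gene, with the 73 ribosomal protein genes coloured by subunit and all other genes in grey; the dashed line is the median of all genes (0.148). Most coloured points lie below the line (65 of 73), with Rpl7a highest among them at 0.265.

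The ribosomal protein genes moved together only in part. Over the 13 arrays the median Pearson correlation between pairs of them was 0.17, and 1778 of 2628 pairs were positive, values that share the arrays and their scaling. The correlation of a gene with the mean of the other members ran from -0.26 (Rpl10) to 0.79 (Rps7), and was positive for most. Pairs of other genes were not examined, so these correlations have no background to be read against. Rpl38, a large-subunit protein that mouse embryos need to translate Hox mRNAs, was high on 3 arrays, high-fat 620 at 11.56, control 622 at 11.38 and high-fat 624 at 11.30. Its other 10 values were 10.84 to 11.24, and its 4 probes followed each other at correlations of 0.981 to 0.998. Rps12, of the small-subunit beak, ranged from 9.54 to 10.02 in controls and from 9.44 to 9.84 in the high-fat group, a difference of -0.12 ± 0.09 (SE). The non-member genes most like the mean of the 73 over the 13 arrays were Plscr3 (r = 0.81), Wdr35 (0.77), Ddx39b (0.77), Hoxa2 (0.76) and Trub2 (0.75). With group means subtracted they were Ndufb3 (0.81), Plscr3 (0.81), Wdr35 (0.80), Rpf2 (0.79) and Hoxa2 (0.78). These are the highest of a ranking of all non-member genes over only 13 arrays. Picking the highest of so many raises r by itself, and a link of these genes to the ribosome was not tested.

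**Figure D4:**
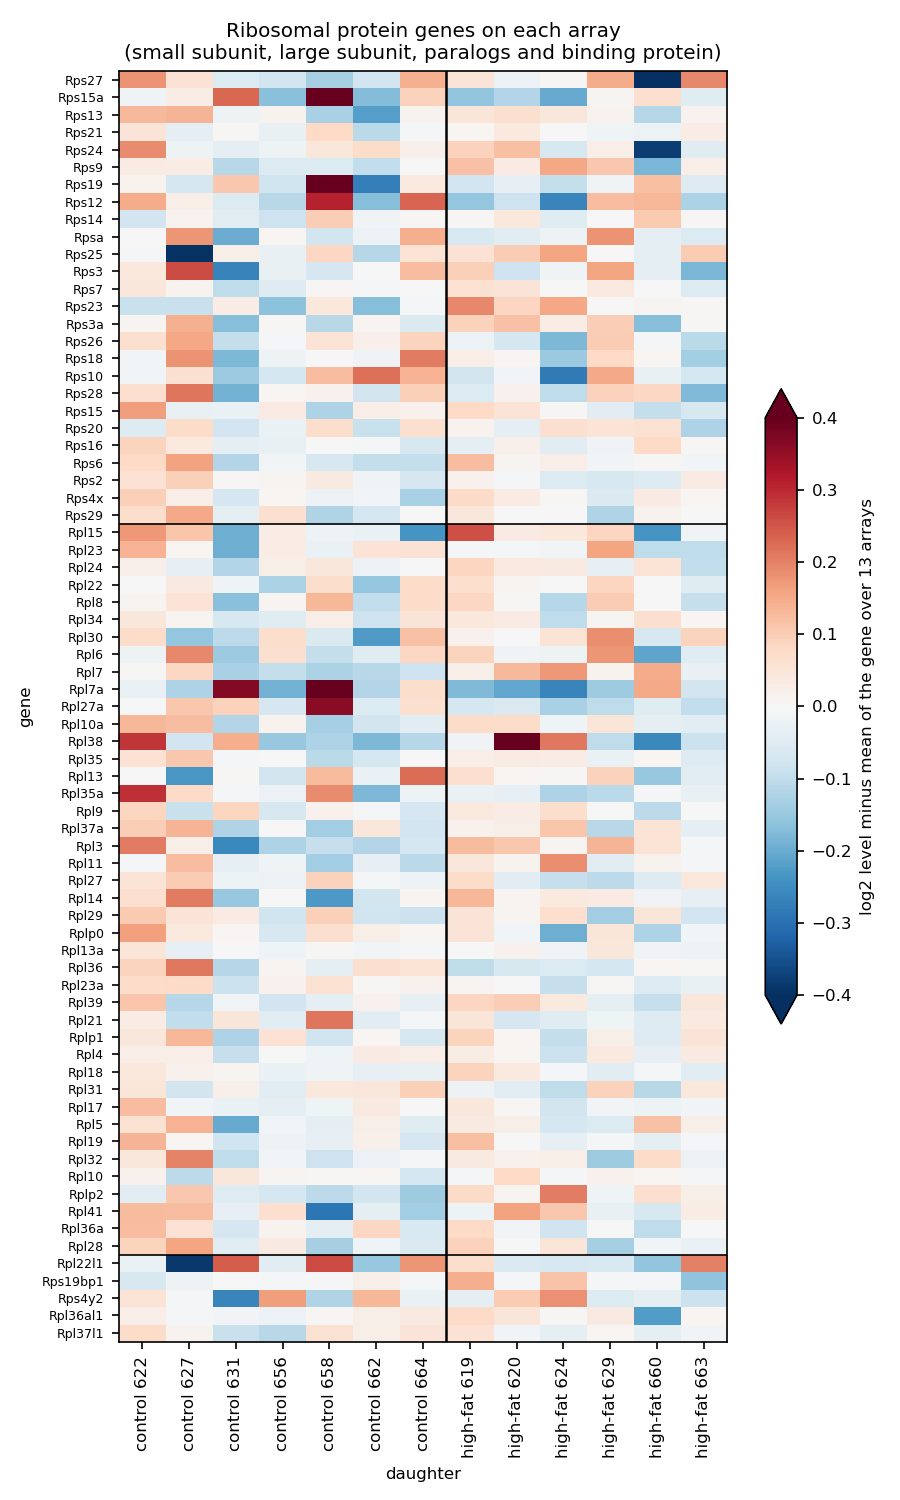
Log2 level of each ribosomal protein gene (rows, by subunit) on each of the 13 arrays (columns, controls left of the line, high-fat daughters right), minus the mean of the gene; the colour scale ends at 0.4 either way. No column is of one colour throughout, and Rpl7a stands out on control 658 and Rpl38 on high-fat 620.

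Several members followed the overall spread of values on the array. On the 3 arrays with the smallest standard deviation, controls 658 and 631 and high-fat 660, Rpl7a was at 10.78 to 11.36, against 10.36 to 10.70 on the other 10. Rps19 was at 9.69 to 9.996 on those 3 arrays, against 9.31 to 9.62. Rps15a was at 8.69 to 9.08, against 8.42 to 8.72. Rpl27a was at 10.71 to 11.12, against 10.63 to 10.87, and its level correlated with the standard deviation of the array at -0.84. In the opposite direction, Rps3a was at 10.80 to 10.86, against 10.92 to 11.12, and Rpl6 at 10.28 to 10.40, against 10.44 to 10.69. Rpl7a and Rps19 were the 2 members with all 3 arrays above the other 10, and Rps3a and Rpl6 the 2 with all 3 below. Over the list, 19 genes were higher and 54 lower on the 3 arrays, with a median of -0.04. The same counts were not made over all genes, so they cannot be read as a trait of this list. Its median level was 11.27, against 8.14 over all genes, and whether other bright genes behave alike was not tested. These 3 arrays were picked by their spread over all genes, and what sets them apart was not tested.

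**Figure D5:**
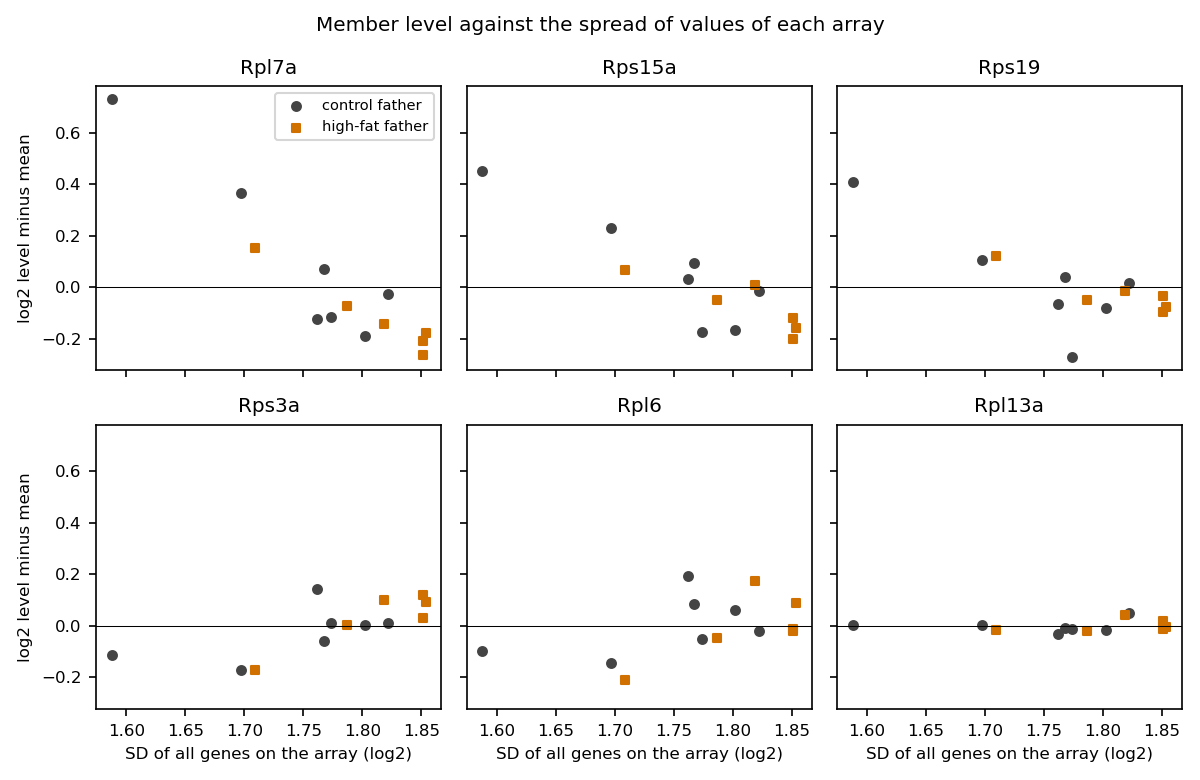
Log2 level minus the mean of the gene against the standard deviation of all genes on that array, for Rpl7a, Rps15a, Rps19, Rps3a, Rpl6 and Rpl13a, with control daughters as circles and high-fat daughters as squares. Rpl7a and Rps19 are highest and Rps3a and Rpl6 lowest on the 3 arrays at the left, and Rpl13a stays near 0 throughout.

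The daughters carry numbers in 2 ranges, 619 to 631 (3 control, 4 high-fat) and 656 to 664 (4 control, 2 high-fat), whose meaning the labels do not give. Within 619 to 631 the median difference of the 73 genes was -0.0011, and 4 had an unadjusted p under 0.05 by limma, all lower, against 13.7% of all genes. Within 656 to 664 it was -0.01, with 0 genes against 0.931%. The interaction of group and range had an unadjusted p under 0.05 for 0 of the 73 genes, against 3.47% of all genes. With group as a term, 2 genes were lower in 656 to 664 at that level, Rpl38 by -0.28 and Rps13 by -0.13, against 5.46% of all genes (2.67% lower). None passed after adjustment.

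Lists of other genes of the translation machinery had median differences between 0.03 and 0.15, beside 0.0028 for the ribosomal proteins and 0.03 for all genes. None of their genes passed after adjustment, and the difference between lists was not tested. The counts below stand beside 7.96% of all genes with an unadjusted p under 0.05. Among the 7253 genes above the middle level of the array 84.4% were higher, with a median of 0.09. Of 25 initiation factors 22 were higher, with a median of 0.08. Their smallest p was that of Eif2s3, a subunit of the factor that brings the initiator tRNA, at 0.14 ± 0.06 (SE) and an unadjusted p of 0.034 by limma, the 1 of 25 (4%) under 0.05. Of 11 elongation and termination factors 8 were higher, with a median of 0.04, and Etf1, which recognises stop codons, was the 1 of 11 (9.09%) under 0.05 at 0.17 ± 0.06 (SE). Of 44 ribosome assembly factors 41 were higher, with a median of 0.08. The 4 of them under 0.05 (9.09%) were the kinases Riok2 (0.18) and Riok1 (0.22), the small-subunit processome protein Imp4 (0.15) and the ATPase Nvl (0.17). RNA polymerase I genes, which make the ribosomal RNA, had a median of 0.09, with 9 of 11 higher and 0 under 0.05.

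All 16 genes of the mTORC1 and TOP control list were higher, with a median of 0.09, the same as that of genes above the middle level. The 2 under 0.05 (12.5%, against 7.96% of all genes) were Rheb, the GTPase that activates mTORC1, at 0.19 ± 0.08 (SE), and Akt1s1, which restrains it, also at 0.19 ± 0.07 (SE). Transcripts outside the ribosome known to carry a TOP tract had a median of 0.03, with 13 of 16 higher and 0 under 0.05. Of 7 genes for ribosome rescue and storage 6 were higher, with a median of 0.15, and 2 were under 0.05 (28.6% of a very short list), the rescue partners Pelo (0.23) and Hbs1l (0.15). Ribosomal proteins outside the symbol rule were close to 0, Fau at 0.05 and Rack1 at 0.02. The smallest adjusted p in these lists was 0.53.

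The mitochondrial ribosome, which translates the mRNAs of mitochondrial DNA, gave other counts. Of its 68 genes 63 were higher in the high-fat group, with a median of 0.11, and 6 (8.82%, all higher) had an unadjusted p under 0.05 by limma, against 7.96% of all genes. The share of higher genes was 92.6%, beside 84.4% of genes above the middle level and 58% of all genes. Some lists of cell type markers also lay mostly on one side. Adipocyte markers were higher in 10 of 10 genes (median 0.10, 3 with an unadjusted p under 0.05), T and NK cell markers were lower in 12 of 12 (median -0.14, 1 under 0.05) and mesothelial markers were lower in 7 of 7 (median -0.42, 0 under 0.05). Endothelial (7 of 7) and erythroid markers (4 of 4) were higher. Skeletal muscle (14 of 15), smooth muscle (5 of 6) and progenitor and fibroblast markers (6 of 8) were mostly lower. Macrophage (5 of 10 higher), brown fat (3 of 6) and B cell markers (3 of 5) were split. No marker passed after adjustment, and the part of the markers in the values of these lists was not tested. Mrpl21 was the clearest at 0.22 ± 0.05 (SE), followed by Mrps35 at 0.26 and Mrpl46 at 0.19. Their mean over the list was 8.83 to 9.14 in controls and 8.94 to 9.24 in the high-fat group, lowest on the 3 arrays of smallest spread at 8.83, 8.95 and 8.94. With the standard deviation of each array as a covariate the median was 0.0011 for the mitochondrial set, 0.0019 for initiation factors, 0.0085 for assembly factors, 0.02 for the mTORC1 list and -0.02 for the 73 cytosolic genes, against 0.0023 for all genes. This covariate comes from the same values and differed between the groups, with medians of 1.77 in controls and 1.83 in the high-fat group. It can therefore take up part of a group difference. Without it, the cytosolic ribosomal proteins above the middle level of the array had a median of 0.00063.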

How the data were processed

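Fat RNA of 13 daughters was hybridised as biotin-labelled cRNA, 1 Affymetrix array each. The deposited values are on a log2 scale, read from their range. RMA (background correction, normalization of arrays to one another, and a summary per probe set) and the Partek package made them, per the submitters' processing notes, with no version or filter given in the sources used here. RMA pulls arrays toward one distribution, which can mask or create small shifts common to bright genes. Scanner files were not used here, so probes carry no detection call. Of 15633 annotated probes, 15310 had 1 symbol and 323 had several, none of these a member. For genes with several probes the one with the highest mean was kept. The 73 members had 261 probes, 18 of them with 1 probe.

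Groups were compared with limma 3.58.1 in R 4.3.3 over 14506 genes, two-sided, with no covariate and Benjamini-Hochberg adjustment at 0.05. The test was checked on simulated data. Sequences were searched with Python 3.11.15. Copies of ribosomal protein genes elsewhere in the genome may share probes, which was not tested. Some probes of one gene held the same values, such as Rps10 probes 10779558 and 10779589, both at a mean of 11.39 and a difference of -0.10. Agreement between the probes of a gene is therefore not independent support for its difference.

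The members and lists were chosen with earlier results of these data known. Named members were the 6 higher and 6 lower with the smallest p, the 4 brightest and 4 dimmest, the 5 most and 5 least variable, and a list of well-known and PCR reference genes. From each pathway list the 2 to 4 with the smallest p could be named, and 5 genes by likeness. Rpl6, Rps3a, Rps10 and Rps13 were named after their values were seen. Alternatives covered normalization, probe rule, variance model, weights, covariates and samples. The tests of the number range were added after seeing the data.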

Additional observations from a re-analysis of the deposited data

Results flagged for a closer look

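Among 88 sets of values (the 2 groups for each named member and a few whole-list measures), 10 held 1 array far from the others of its group. By chance this occurs in about 1 in 20 independent sets. These sets share arrays, and some members were named for their p or spread on them, so the count cannot be held against that rate. In controls, Rplp2 was highest on 627 at 12.85 (next 12.70), Rps25 was lowest on 627 at 10.05 (next 10.33), Rpl27a was highest on 658 at 11.12 (next 10.87) and Rpl4 was lowest on 631 at 12.19 (next 12.27). In the high-fat group, Rps27 was lowest on 660 at 6.28 (next 6.67), and 629 was lowest for Rps29 at 13.58 (next 13.70) and highest for Rpsa at 10.59 (next 10.39). Rpl10 was highest on 620 at 12.75 (next 12.69), and 619 was highest for Rps6 at 12.34 (next 12.24) and for Rpl19 at 12.71 (next 12.59). Rplp2 and Rps25 share control 627, which lay toward the high-fat values for Rplp2 and away from them for Rps25.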

How the results depend on the processing

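The median difference of the 73 genes stayed between -0.03 and 0.03 under 29 alternatives, and between -0.0078 and 0.01 with each array left out in turn. No gene of the list passed after adjustment under any of 28 alternatives, an adjusted p of 0.1 included, and the smallest adjusted p of a named member was 0.28. The count with an unadjusted p under 0.05, 4 as reported, was 1 after repeated quantile normalization (background 6.75%), 7 with array weights (background 15%), 0 in daughters 656 to 664 and 0 without the 4 arrays with the most muscle signal. With single arrays left out it ran from 1 to 4, being 1 without high-fat 624 and 2 without control 656 or high-fat 619. Of 41 named members, 16 kept their sign under every alternative, among them Rpl7, Rps23, Rplp2, Rpl3, Rps25 and Rpl27a, and 25 did not. With array spread as a covariate Rpl7a reached 0.02 and Rps15a 0.01; the cause was not tested. No paired analysis was possible because the groups share no sample numbers. With 13 arrays, differences inside the intervals given cannot be resolved, and without detection calls the signal over background of dim probes such as Rps27 is unknown.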
